A study of Mus musculus with 6 samples.

Results

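Of 42632 peaks of open chromatin in mouse long-term haematopoietic stem cells (LT-HSCs), 259 overlapped a gene for a small noncoding RNA, 0.608% of all peaks. A peak was taken when it shared at least 1 base with a RefSeq gene of biotype tRNA, snRNA, snoRNA or miRNA on mm10, or with a 7SL gene, Rn7s1 or Rn7s2. These peaks covered 291 of the 4004 annotated genes of these kinds: 150 of 430 tRNA genes in 125 peaks, 37 of 1004 snRNA genes in 36 peaks, 20 of 1340 snoRNA genes in 19 peaks, 82 of 1228 miRNA genes in 78 peaks, and both 7SL genes in 2 peaks. One peak counts in 2 classes, since it lies over Mir5136 and Snora57. Peaks were taken by position and not by their counts, but the rule was chosen with earlier results of these data known.

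The counts come from ATAC-seq, in which a transposase inserts adapters into accessible DNA, on LT-HSCs sorted as Lin- Sca1+ cKit+ CD34- Flt3- out of bone marrow (C57BL/6 strain, 10-16 weeks old). Confined cells (n = 3 libraries) were kept in suspension for 13 h, left for 0.5 h to attach to glass coated with fibronectin, held for 2 h under a ceiling at 5 µm, and taken off the glass with a dissociation reagent. Unconfined cells (n = 3) stayed in the same medium for 16 h. The comparison asks how squeezing a stem cell changes its accessible chromatin, and attachment and detachment went with it. Each experimental batch, numbered 1 to 3 in the labels, holds 1 library of each group. The submitters call the libraries biological replicates without saying whether each came from separate animals, so p-values measure the spread between these samples.

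Transfer RNA genes, the 7SL genes and the U6 snRNA genes are read by RNA polymerase III, and tRNA genes carry their promoter, the A box and B box, inside the transcribed sequence. Most other spliceosomal snRNA genes and the U3 and U7 genes are read by RNA polymerase II from compact promoters of their own. Most vertebrate snoRNAs and many miRNAs are instead cut out of longer host transcripts. Many tRNA, U1, U2 and U3 genes exist as near-identical copies, and how the authors counted reads that fit several copies is not given in the sources used here. Counts of a single copy are uncertain for that reason.

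Of the genes under these peaks, 5 could be read whole from the RefSeq promoter sequences of GRCm38.p6, because they fall inside the window from 250 bases before to 50 bases after a gene's start. They are shown because they let a reader see what these peaks lie on. In the tRNA genes the first capitals mark the anticodon. Where the letters GGTTCGA of the B box occur, they are in capitals too. The genes lie at chr13:23446142-23446214 (minus strand), chr7:35234770-35234843 (minus strand), chr7:79466419-79466491 (plus strand) and chr13:21222586-21222657 (plus strand), in the order shown.
n-TVcac9: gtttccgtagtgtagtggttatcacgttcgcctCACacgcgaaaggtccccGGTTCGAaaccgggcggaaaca
n-TTagt9: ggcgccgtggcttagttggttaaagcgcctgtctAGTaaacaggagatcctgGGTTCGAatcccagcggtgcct
n-TRtcg5: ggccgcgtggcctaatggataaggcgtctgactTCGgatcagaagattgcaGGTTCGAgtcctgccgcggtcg
n-TAagc16: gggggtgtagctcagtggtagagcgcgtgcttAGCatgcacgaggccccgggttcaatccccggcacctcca
The first 3 carry an exact match to GGTTCGA and n-TAagc16 does not. Searched on both strands, this motif occurred in 299 of 32851 promoter windows of all genes (0.910%) and in 5 of the 88 windows that meet the 259 peaks (5.68%). The motif is part of tRNA genes, and the peaks were taken for lying over such genes. The larger share was therefore set by the choice and is not a result. The fifth gene is Rnu7, at chr6:124741225-124741286 on the minus strand. It encodes U7, the small nuclear RNA that takes part in cutting the ends of histone pre-mRNAs. Capitals mark AATTTGT, within the site where its ring of Sm and Lsm proteins sits. These letters occurred in 3.17% of all windows and in 2 of the 88 (2.27%).
Rnu7: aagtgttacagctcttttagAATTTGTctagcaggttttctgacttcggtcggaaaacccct
Of the 82 miRNA genes, 76 matched a mature sequence in RefSeq, with 111 mature miRNAs and 108 distinct seeds (bases 2 to 8). Those shown are miRNAs known from blood cells whose genes lie under a peak, and miR-713, whose peak passed the test below. For Mir150 the only mature form matched was miR-150-3p, and which form acts on its targets is not stated here. Capitals mark the seed.
mmu-miR-142a-5p: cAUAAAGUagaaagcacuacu
mmu-miR-142a-3p: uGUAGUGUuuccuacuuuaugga
mmu-miR-155-5p: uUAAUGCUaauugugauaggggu
mmu-miR-150-3p: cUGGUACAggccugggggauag
mmu-miR-132-3p: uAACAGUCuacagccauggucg
mmu-miR-212-3p: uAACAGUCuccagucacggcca
mmu-let-7i-5p: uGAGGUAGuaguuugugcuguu
mmu-miR-33-5p: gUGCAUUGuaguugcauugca
mmu-miR-713: uGCACUGAaggcacacagc
miR-132-3p and miR-212-3p share the seed AACAGUC, and their genes lie under 1 peak. Only 3 seeds were shared by 2 genes each among the 108.

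The classes differed in how much of their gene set lay under a peak. How reads that fit several copies were counted is not given, so a gene without a peak need not be closed. A peak lay over 34.9% of annotated tRNA genes, 3.69% of snRNA genes, 1.49% of snoRNA genes and 6.68% of miRNA genes. The 430 annotated tRNA genes comprise 402 nuclear genes, 22 mitochondrial genes and 6 others, and the shares by amino acid use the nuclear ones. All 20 amino acids had a tRNA gene under a peak, and 42 of 48 annotated anticodons did. The share was highest for phenylalanine, with 5 of 7 nuclear genes (71.4%), and for arginine, with 15 of 24 (62.5%). It was lowest for cysteine, with 2 of 56 genes (3.57%), and alanine, with 7 of 33 (21.2%). No test was made between amino acids, whose genes share sequence and often position.

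**Figure D1:**
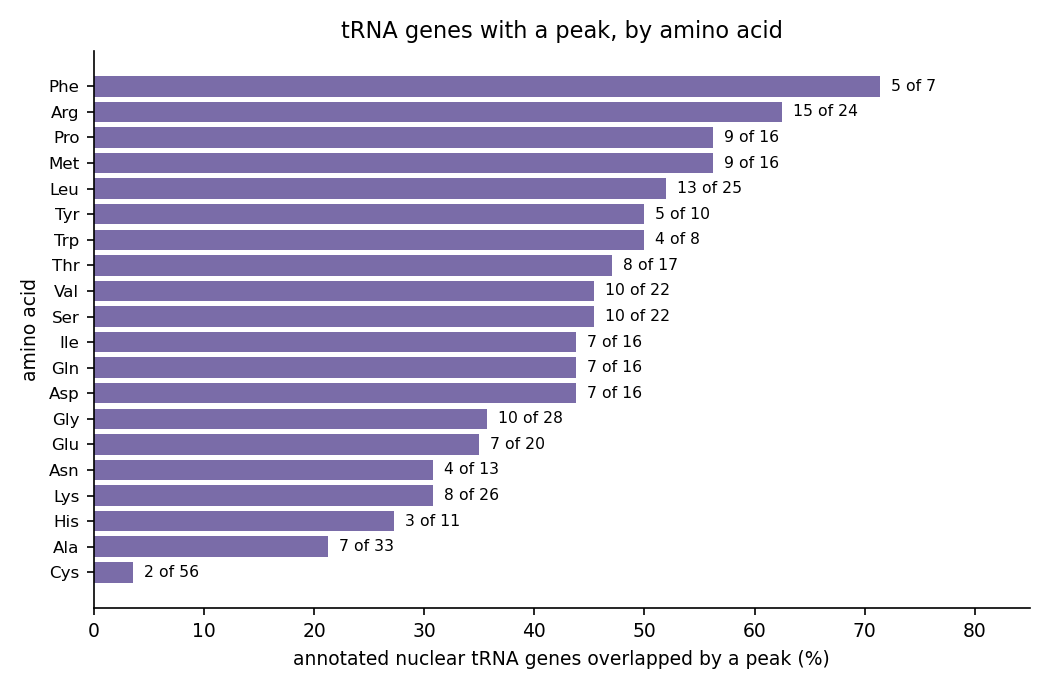
Share of annotated nuclear tRNA genes overlapped by a peak (%), 1 bar per amino acid, with the number of genes beside the bar. Phenylalanine stands highest at 5 of 7 genes, and cysteine lowest at 2 of 56.

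The rule of overlap limits how far a gene can lie from the centre of its peak, so its position is given as a description. All peaks are 700 bp wide, and the median distance from gene midpoint to peak centre was 154 bp for tRNA, 114 bp for snRNA, 118 bp for snoRNA and 184 bp for miRNA genes. Within 100 bp of the centre lay 49 of 150 tRNA genes (32.7%), 16 of 37 snRNA genes (43.2%), 7 of 20 snoRNA genes (35.0%) and 25 of 82 miRNA genes (30.5%). Of the 291 genes, 240 lay whole inside a peak, and 32 peaks held more than 1 of them.

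**Figure D2:**
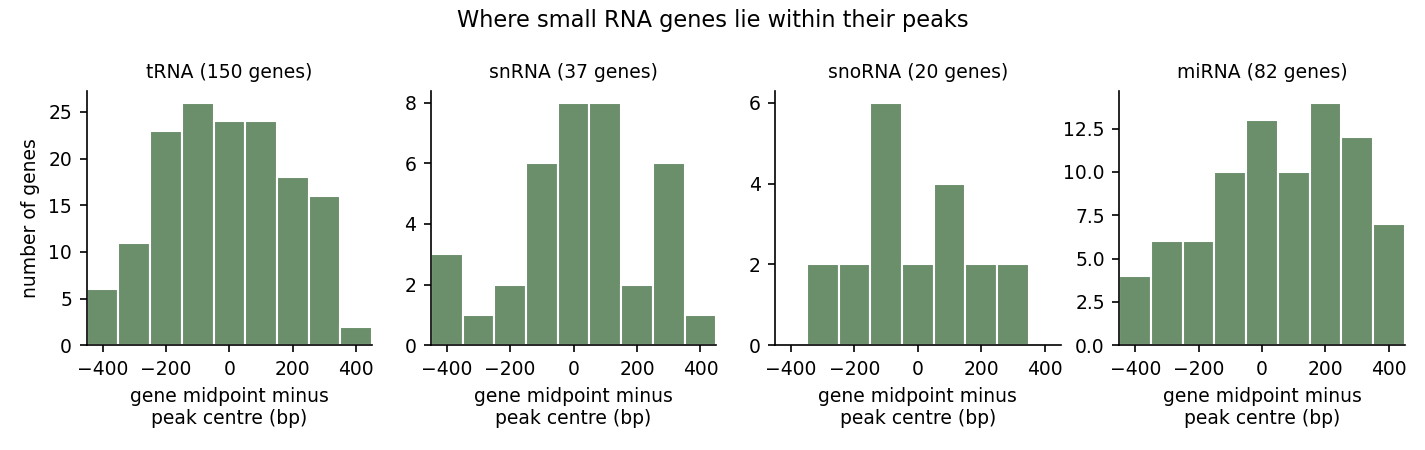
Distance from the peak centre to the midpoint of each small RNA gene (bp, horizontal), as the number of genes per 100 bp (vertical), 1 panel per class. The medians of the distance, whatever its sign, run from 114 bp (snRNA) to 184 bp (miRNA).

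Within 1 kb of an end of a protein-coding gene lay 88 of the 259 peaks (34.0%), measured from the peak midpoint, against 26.4% of all peaks. The share was 22.4% for tRNA (28 of 125), 19.4% for snRNA (7 of 36), 26.3% for snoRNA (5 of 19) and 61.5% for miRNA peaks (48 of 78). Of the 7SL peaks, the midpoint of that over Rn7s1 lay 134 bp from an end of Rps29, a ribosomal protein gene. The midpoint of that over Rn7s2 lay 4348 bp from Nemf. Peaks on an annotated start of a protein-coding gene made up 43.6% of miRNA peaks (34 of 78), 12.8% of tRNA peaks (16 of 125) and 20.8% of all peaks. For the peaks near gene ends, counts of the small RNA gene and of the neighbouring promoter cannot be told apart. The annotation used here gives no strand and no exons, so exon, intron and UTR positions are not stated.

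Peaks over small RNA genes took a smaller share of the counts in each confined library than in any unconfined one. Of all counts, the 259 peaks took 0.693%, 0.594% and 0.672% in confined libraries 1 to 3, and 0.936%, 0.880% and 0.952% in unconfined libraries 1 to 3. Set against the average peak of the same library, a peak over a small RNA gene held 1.08 ± 0.0862 times as many counts in confined cells and 1.52 ± 0.0625 times in unconfined cells (SD, n = 3 each). No confined library reached the lowest unconfined one. The exact 95% binomial intervals of the share in confined library 1, the highest, were 0.666% to 0.722%, and in unconfined library 2, the lowest, 0.864% to 0.897%. They cover counting error only. The level was then split by position. Near gene ends the level was 1.14 ± 0.162 in confined and 2.02 ± 0.167 in unconfined cells, and all peaks near gene ends stood at 0.994 ± 0.154 and 1.55 ± 0.0850. Away from gene ends it was 1.04 ± 0.0635 in confined and 1.26 ± 0.0241 in unconfined cells, while all peaks there stood at 1.00 ± 0.0552 and 0.803 ± 0.0305. Away from gene ends, the pool of peaks over small RNA genes thus had the lower mean in confined cells and all peaks had the higher one. The sets differ in strength. The filter on low counts used below kept 32.7% of the peaks over small RNA genes there and 14.2% of all peaks there. The peaks it kept, near gene ends or not, took a smaller share of counts in each confined library than in any unconfined one. The part of peak strength in this contrast was not tested. By class, the mean away from gene ends was lower in confined cells for tRNA (0.948 against 1.26 in unconfined cells) and snRNA peaks (1.26 against 1.77). It was higher in confined cells for snoRNA (1.02 against 0.970), miRNA (0.931 against 0.790) and 7SL (7.98 against 5.26). In the classes with the higher mean, confined and unconfined libraries overlapped.

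Total counts in peaks were 340922, 221390 and 128257 in confined libraries 1 to 3, and 304898, 1229478 and 983863 in unconfined libraries 1 to 3. The median peak over a small RNA gene held 8, 5 and 3 counts in the confined libraries and 8, 35 and 27 in the unconfined ones, so that single confined values rest on few counts. Of 8 genes known from stem cells, 5 had a peak within 1 kb of an end, and these held 185, 203 and 85.8 CPM of all peaks in confined and 338, 269 and 296 in unconfined libraries. Among markers of other blood cells, the peaks of Cd79a, a B cell gene, and Hbb-bt, an erythroid gene, together held 41.1, 22.6 and 31.2 CPM of all peaks in confined libraries 1 to 3, and 6.56, 21.1 and 29.5 in unconfined libraries 1 to 3. The summed stem cell level was thus lower in every confined library than in any unconfined one, but this came largely from Lyl1. Its peak held 14, 7 and 0 counts in confined and 65, 130 and 152 in unconfined libraries 1 to 3. Procr went the other way, with 13, 20 and 5 counts in confined and 6, 50 and 29 in unconfined libraries, a higher mean share in confined cells. The pair of Cd79a and Hbb-bt had the higher mean in confined cells, on few counts, with libraries that overlapped. Cd3e, Cd3g, Cd8a, Ms4a1, Elane, S100a8, Ngp and Klf1 had no such peak. Ly6a, Mecom and Gata2 had no such peak. The part of these levels in the results below was not tested.

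**Figure D3:**
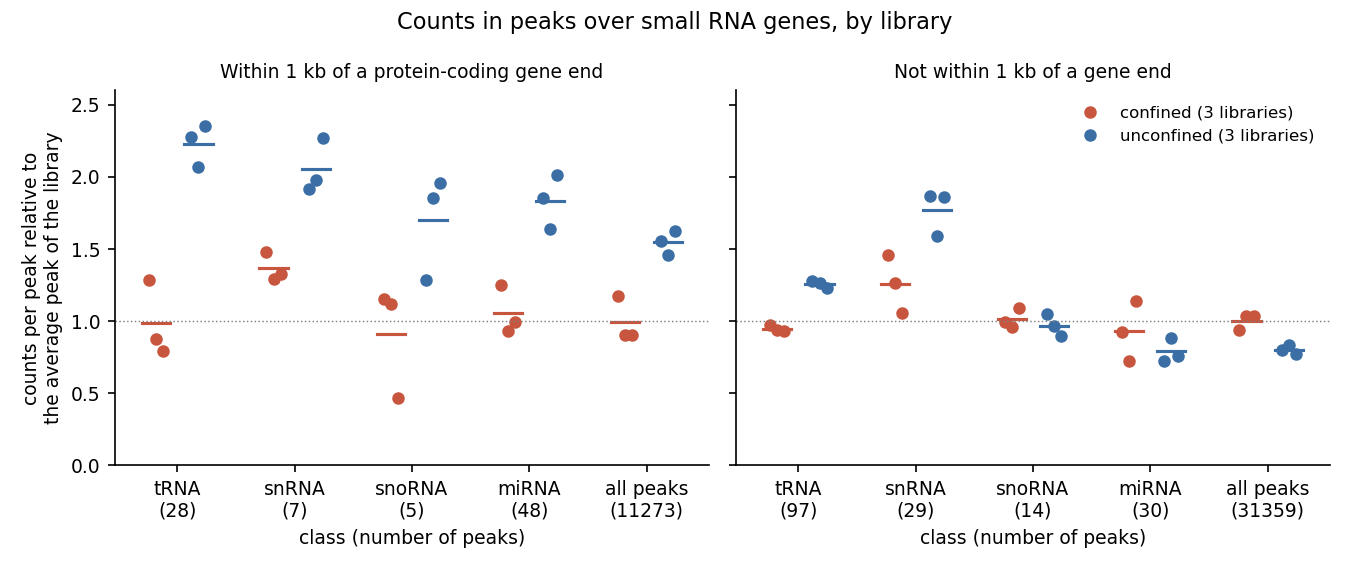
Counts per peak relative to the average peak of the same library (no unit, 1 is the average), by class, for peaks near gene ends (left panel) and away from them (right panel). Each point is 1 library, short bars are means of 3, and confined libraries stand left of unconfined ones. Away from gene ends, tRNA peaks stand at 0.948 in confined and 1.26 in unconfined cells, and all peaks at 1.00 and 0.803.

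Single peaks were compared with edgeR's quasi-likelihood test on all peaks that passed its filter on low counts, with p-values adjusted by Benjamini-Hochberg over all of them. Of 9084 tested peaks, 5.79% were higher in confined cells and 2.42% lower at an adjusted p under 0.05, 8.21% in either direction. The filter kept 108 of the 259 peaks, and 151 were too low to test. Of these 108, 2 were higher and 3 lower in confined cells, 4.63% against 8.21% of all tested peaks. At an unadjusted p under 0.05, 8 of the 108 were higher and 15 lower, beside 1205 higher and 1073 lower of all 9084 tested peaks. With the batch number as a block, the same 2 higher and no lower peak passed, at adjusted p = 0.0355 and 0.0340. None passed without confined library 2 or unconfined library 3, where 2.43% and 3.27% of all tested peaks did. Without unconfined library 1 there were 0 higher and 10 lower (7.25%, beside 8.33% of all tested peaks). Without unconfined library 2 there were 2 and 1 (2.65% beside 8.44%). Without confined library 1 there were 7 and 7 (11.7% beside 23.4%), and without confined library 3 there were 3 and 7 (7.35% beside 11.0%). Near gene ends 4.85% of all tested peaks passed and away from them 11.7%, against 3.85% (2 of 52) and 5.36% (3 of 56) of those over small RNA genes. The median log2 fold change was -0.15 over the 108 peaks and -0.02 over all tested peaks. Near gene ends it was -0.32 against -0.26, and away from them 0.04 against 0.27. Scaled by total counts alone, the median of all tested peaks moved to -0.68 and that of the 108 peaks to -0.81, of which 0 were then called higher and 30 lower, beside 348 and 2286 of all tested peaks.

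**Figure D4:**
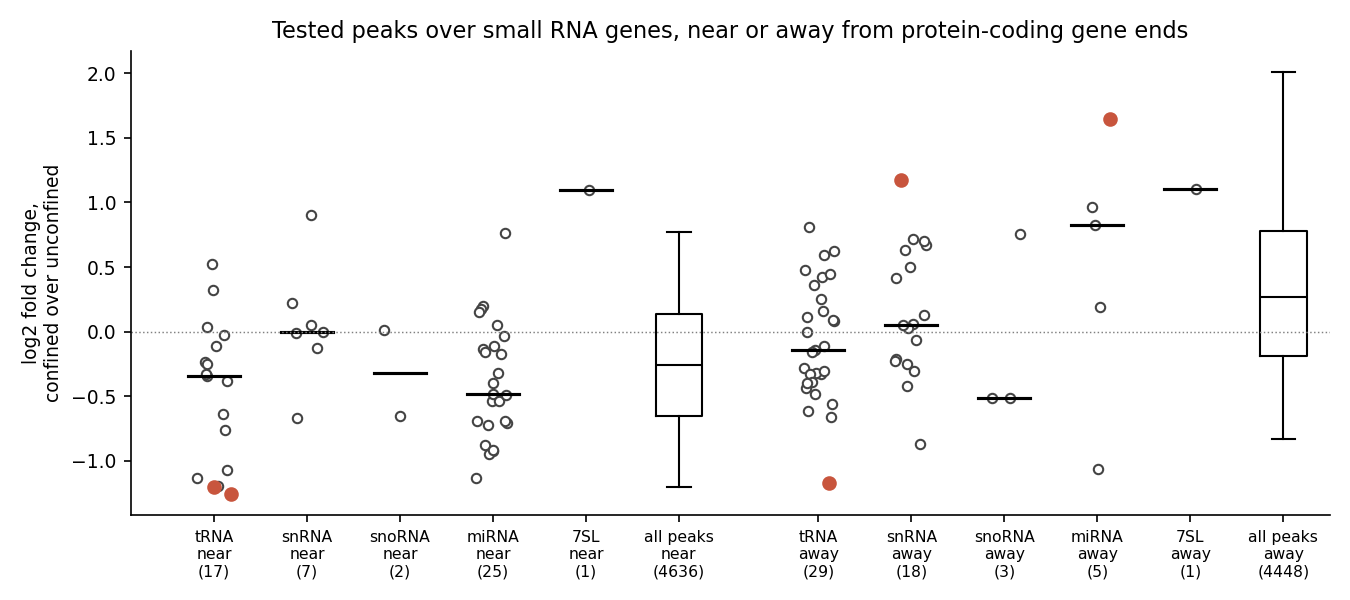
Log2 fold change, confined over unconfined, of each tested peak over a small RNA gene (points; filled, past the threshold), by class and by whether it lies within 1 kb of a protein-coding gene end, with the number tested in brackets and black bars for medians. Boxes give the quartiles of all tested peaks and whiskers their 5th and 95th percentiles. The median of tRNA peaks is -0.34 near gene ends and -0.14 away from them, that of all peaks -0.26 and 0.27.

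Transfer RNA peaks held the 3 lower calls. All 3 tRNA peaks that passed were lower in confined cells, 3 of the 46 tested (6.52%, beside 2.42% of all tested peaks called lower). Near gene ends these were 2 of 17 (11.8%, beside 3.77% of all tested peaks there), and away from them 1 of 29 (3.45% beside 1.01%). DESeq2 called none of the 46 and limma-voom 2, and 7 of the 46 were lower at an unadjusted p under 0.05, with none higher. Of these 7, 6 lay near gene ends and 1 away from them. The median log2 fold change was -0.27 over the 46, with 31 below 0 and 15 above. Near gene ends 14 of 17 were below 0, beside 3108 of all 4636 tested peaks there. Away from them 17 of 29 were below 0, beside 1557 of 4448. Relative to the average peak, tRNA peaks stood at 1.05, 0.924 and 0.899 in confined libraries 1 to 3, and at 1.5, 1.44 and 1.48 in unconfined libraries 1 to 3. The means were 0.956 ± 0.0783 and 1.48 ± 0.0304 (SD, n = 3 each), and the libraries of the groups did not overlap.

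The peak over n-TRacg2, an arginine tRNA gene with anticodon ACG, spans chr9:123529193-123529892 and the start of Sacm1l, which encodes a phosphoinositide phosphatase. It held 14, 4 and 3 counts in confined libraries 1 to 3, and 30, 141 and 118 in unconfined libraries 1 to 3. Scaled to library size (CPM, with TMM factors, over the tested peaks) these are 117, 74.3 and 94.3 in confined and 202, 268 and 241 in unconfined cells. Every confined library lay below every unconfined one. Peaks past the threshold were picked by a test on these same counts, so a lack of overlap adds nothing to the calls here and below. The share of all tested peaks without overlap was not counted. For n-TRacg2 the log2 fold change was -1.26 ± 0.37 (SE, adjusted p = 0.0260). The adjusted p was 0.120 with the batch block, and without unconfined library 3 or confined library 2 it was 0.0714 or 0.0769.

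The peak over n-TIaat16, an isoleucine tRNA gene with anticodon AAT, spans chr7:28372571-28373270 and the start of Plekhg2, which encodes a guanine nucleotide exchange factor. Its counts were 15, 9 and 1 in confined libraries 1 to 3, and 34, 145 and 152 in unconfined libraries 1 to 3. In CPM these are 125, 167 and 31.4 in confined and 229, 275 and 310 in unconfined cells, again without overlap. The log2 fold change was -1.20 ± 0.38 (adjusted p = 0.0409). With the batch block the adjusted p was 0.159. Without unconfined library 2 or 3 or confined library 2 it was 0.0535, 0.124 or 0.0541.

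The peak over n-TQttg6, a glutamine tRNA gene with anticodon TTG, spans chr11:95858852-95859551 and is the only one of the 3 away from gene ends, 4358 bp from B4galnt2, a glycosyltransferase gene. It held 8, 5 and 2 counts in confined libraries 1 to 3, and 28, 95 and 69 in unconfined libraries 1 to 3. In CPM these are 66.7, 92.8 and 62.9 in confined and 188, 180 and 141 in unconfined cells, with no overlap. The log2 fold change was -1.18 ± 0.39 (adjusted p = 0.0489), and the adjusted p was 0.0921 with the batch block. The peak passed the filter on low counts through the unconfined group alone, with 23.5, 22.6 and 15.6 CPM of all peaks in confined and 91.8, 77.3 and 70.1 in unconfined libraries. Fitted with no filter it still passed (adjusted p = 0.0152). Without unconfined library 2 or 3 or confined library 1 or 2 it ran from 0.0539 to 0.111. DESeq2 gave adjusted p = 0.0796, 0.0946 and 0.162 for n-TRacg2, n-TIaat16 and n-TQttg6.

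The promoters shared with the first 2 of these tRNA peaks are those of Sacm1l (chr9:123529503-123529802, plus strand) and Plekhg2 (chr7:28372613-28372912, minus strand), both from RefSeq. They are shown because the counts of the tRNA gene and of the promoter come from the same 700 bp. Capitals mark GGGCGG (GC box), CCGGAAG (ETS), CCAAT and TATAAA on either strand.
Sacm1l: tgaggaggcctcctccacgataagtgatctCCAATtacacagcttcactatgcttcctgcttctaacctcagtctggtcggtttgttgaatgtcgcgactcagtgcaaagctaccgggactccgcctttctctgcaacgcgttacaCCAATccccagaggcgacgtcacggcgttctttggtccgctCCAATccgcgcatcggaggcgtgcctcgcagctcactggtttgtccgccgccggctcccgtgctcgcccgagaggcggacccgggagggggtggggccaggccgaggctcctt
Plekhg2: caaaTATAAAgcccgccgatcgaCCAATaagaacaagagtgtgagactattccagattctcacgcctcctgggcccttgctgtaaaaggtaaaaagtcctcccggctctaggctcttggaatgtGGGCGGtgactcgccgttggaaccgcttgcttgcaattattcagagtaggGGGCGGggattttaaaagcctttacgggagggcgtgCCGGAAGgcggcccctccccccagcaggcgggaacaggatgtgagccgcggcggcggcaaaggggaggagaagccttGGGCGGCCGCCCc
The Sacm1l window held 3 CCAAT matches and none of the other motifs, and the Plekhg2 window held 4 GC boxes and 1 match to each of the other 3. Over all 32851 windows, GGGCGG occurred in 35.7%, CCGGAAG in 8.86%, CCAAT in 37.4% and TATAAA in 13.6%. Over the 88 windows that meet peaks over small RNA genes they occurred in 77.3%, 27.3%, 44.3% and 14.8%. The 32851 windows include promoters with no peak, and windows under other peaks were not counted. These shares therefore do not set peaks over small RNA genes apart from other peaks at promoters. A match describes these letters only.

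Among tRNA peaks, n-TRacg6 had the highest mean CPM in unconfined cells. It spans the start of Prmt5, a protein arginine methyltransferase gene, at chr14:54517129-54517828, and held 23, 12 and 1 counts in confined libraries 1 to 3, and 67, 175 and 163 in unconfined libraries 1 to 3. In CPM, confined cells had 192, 223 and 31.4 and unconfined cells 450, 332 and 333, with no overlap, but it did not pass (log2 fold change -1.07 ± 0.40, adjusted p = 0.0876). Without confined library 1 the adjusted p was 0.0321, in a fit that called 23.4% of all tested peaks. The peak over n-TAagc9, an alanine tRNA gene at the start of Ppp6r3, had 108, 223 and 189 CPM in confined and 242, 232 and 304 CPM in unconfined cells, without overlap (log2 fold change -0.76 ± 0.36, adjusted p = 0.176).

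Away from gene ends none of the 3 highest tRNA peaks passed. n-TRcct1 had 208, 334 and 126 CPM in confined and 269, 213 and 190 CPM in unconfined cells (adjusted p = 0.894), and the groups overlapped. The peak that holds n-TYgta1, n-TYgta2 and n-TAagc14 together had 117, 74.3 and 283 CPM in confined and 188, 179 and 178 CPM in unconfined cells (log2 fold change -0.44 ± 0.35, adjusted p = 0.462). n-TYgta7 had 175, 149 and 31.4 CPM in confined and 175, 184 and 178 CPM in unconfined cells (adjusted p = 0.590). In all 3 peaks the confined libraries spread more widely than the unconfined ones.

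The tRNA genes of mouse are partly clustered, with the largest group on chromosome 13 beside the histone genes. The 36 tRNA peaks of chromosome 13, none near a protein-coding gene end, stood at 0.855 ± 0.0836 of the average peak in confined and 0.915 ± 0.0403 in unconfined cells (SD, n = 3 each). On the other chromosomes, the 61 tRNA peaks away from gene ends stood at 1.00 ± 0.0820 in confined and 1.46 ± 0.0522 in unconfined cells, and the 28 near gene ends at 0.985 ± 0.264 and 2.23 ± 0.147. The difference between chromosome 13 and the rest was not tested. By cluster, the 13 peaks at chr13:23431224-23526909 stood at 0.767 ± 0.150 in confined and 0.960 ± 0.0338 in unconfined cells. The other 2 clusters of chromosome 13 had means closer to each other than their SD. The 12 peaks at chr13:21855052-22051328 stood at 0.858 ± 0.0616 in confined and 0.828 ± 0.152 in unconfined cells, and the 9 at chr13:21160800-21327322 at 1.02 ± 0.106 and 1.00 ± 0.0567. The 12 peaks at chr11:69036674-69125744, 6 of them near gene ends, stood at 0.690 ± 0.118 in confined and 1.01 ± 0.138 in unconfined cells. The 3 histidine tRNA peaks at chr2:122375368-122378327 stood at 0.833 ± 0.168 in confined and 1.79 ± 0.335 in unconfined cells. In the remaining 3 clusters the means were 0.883 in confined and 1.52 in unconfined cells (5 peaks at chr11:48818173-48856891), 0.902 and 1.65 (4 peaks at chr14:51063540-51090803), and 1.12 and 1.19 (4 peaks at chr19:12001974-12012318). By amino acid, tyrosine peaks had the highest mean level in each group, 1.55 in confined and 3.36 in unconfined cells over 4 peaks.

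Both 7SL peaks were high in 1 confined library. 7SL RNA is the scaffold of the signal recognition particle, which brings ribosomes that make secreted proteins to the endoplasmic reticulum. The Rn7s1 peak (chr12:69158970-69159669) held 31, 18 and 51 counts in confined libraries 1 to 3, and 48, 117 and 142 in unconfined libraries 1 to 3. The Rn7s2 peak (chr12:69361199-69361898) held 17, 20 and 54 counts in confined libraries 1 to 3, and 43, 124 and 126 in unconfined libraries 1 to 3. In CPM, Rn7s1 had 258, 334 and 1603 in confined and 323, 222 and 290 in unconfined cells, and Rn7s2 had 142, 371 and 1698 in confined and 289, 235 and 257 in unconfined cells. Confined library 3, the shallowest, thus stood far above the other 5, which overlapped, and in it the 2 peaks ranked 5 and 4 among all 42632. Neither passed the test (log2 fold change 1.10 ± 0.44 and 1.10 ± 0.46, adjusted p = 0.105 and 0.122). Without confined library 3 the log2 fold changes were -0.10 and -0.39 (adjusted p = 0.866 and 0.481). Without confined library 1 both passed, at 1.53 and 1.71 (adjusted p = 0.0047 and 0.0015). That fit called 23.4% of all tested peaks, against 8.21% in the main one. The copies are close in sequence, so their counts may share reads.

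**Figure D5:**
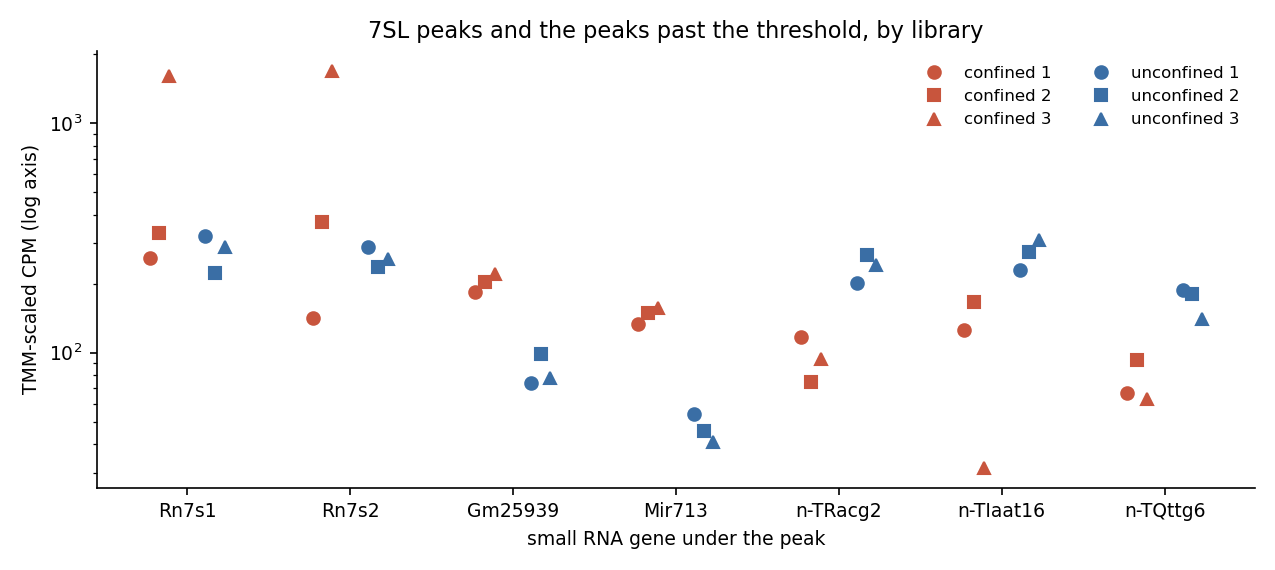
TMM-scaled CPM (log axis) in each library at the 2 peaks over 7SL genes and the 5 peaks past the threshold. Confined libraries stand left of unconfined ones, and symbols mark the library number. Confined library 3 has 1603 CPM at Rn7s1 and 1698 at Rn7s2, above the other 5 libraries. At the 5 called peaks, picked by a test on these same counts, the groups do not overlap.

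Small nuclear RNA peaks had the highest levels of the biotypes after 7SL. They stood at 1.46, 1.27 and 1.11 of the average peak in confined libraries 1 to 3, and at 1.88, 1.67 and 1.94 in unconfined libraries 1 to 3 (means 1.28 ± 0.177 and 1.83 ± 0.144, SD, n = 3 each). Of 25 tested, 1 was higher in confined cells and none lower (4%, beside 8.21% of all tested peaks), and DESeq2 and limma-voom gave the same counts. At an unadjusted p under 0.05, 3 were higher and 1 lower. The median log2 fold change was 0.05, with 14 above 0 and 11 below.

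The higher one lies over Gm25939 at chr1:72254635-72255334, 4188 bp from Pecr, one of 4 snRNA genes with Gm names under 4 neighbouring peaks. It held 22, 11 and 7 counts in confined libraries 1 to 3, and 11, 52 and 38 in unconfined libraries 1 to 3. In CPM these are 183, 204 and 220 in confined and 74.0, 98.8 and 77.6 in unconfined cells, with no overlap. The log2 fold change was 1.18 ± 0.32 (adjusted p = 0.0145). Without confined library 2 or unconfined library 1, 2 or 3 the adjusted p ran from 0.0597 to 0.209, and scaled by total counts the log2 fold change was 0.53 (adjusted p = 0.256). With no filter it was 0.32 (adjusted p = 0.692), and it was 0.85 with a filter that asks for a mean of 10 counts (adjusted p = 0.110). Relative to the average peak, the 4 neighbours together stood at 1.61 ± 0.173 in confined and 1.58 ± 0.154 in unconfined cells.

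The U1 and U3 cluster at chr11:87422634-87471662 (Rnu1a1, Gm22068 and Rnu3b1 to Rnu3b4) had the highest mean level of the 4 snRNA clusters in each group. U1 recognises the start of introns and U3 guides the cutting of the ribosomal RNA precursor. Its 6 peaks, none near a protein-coding gene end, stood at 1.75 ± 0.368 of the average peak in confined and 3.34 ± 0.836 in unconfined cells (SD, n = 3 each). No confined library reached the lowest unconfined one, 2.46. In the CPM of the tested peaks the single copies overlapped: Rnu3b3 had 167, 223 and 189 in confined and 229, 161 and 182 in unconfined cells (adjusted p = 0.971). Rnu3b4 and Rnu3b2 did not pass either (adjusted p = 0.95 and 0.730). The scales have different denominators, and tested peaks took from 23.6% of the counts (confined library 3) to 51.2% (unconfined library 3). The 5 peaks of the U2 cluster at chr11:101604527-101658753, which includes Rnu2-10, stood at 1.55 ± 0.730 in confined and 1.89 ± 0.281 in unconfined cells, and these overlapped. U2 pairs with the branch point of introns.

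All 7 snRNA peaks near gene ends were tested, and edgeR, DESeq2 and limma-voom called none, with 1 at an unadjusted p under 0.05. Rnu12 encodes the U12 RNA of the minor spliceosome, and the midpoint of its peak lies 37 bp from an end of Poldip3. This peak had 100, 130 and 189 CPM in confined and 108, 133 and 120 CPM in unconfined cells (adjusted p = 0.993). Rnu7, whose sequence is given above, had 142, 204 and 94.3 CPM in confined and 108, 148 and 118 CPM in unconfined cells (adjusted p = 0.719). The peak over LOC115487699, at the start of Alyref2, had 50, 167 and 157 CPM in confined and 87.4, 139 and 83.7 CPM in unconfined cells (adjusted p = 0.886). In these 3 peaks the groups overlapped.

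Small nucleolar RNA peaks were few and near the level of the average peak. They stood at 0.988 ± 0.0547 in confined and 1.16 ± 0.0449 in unconfined cells (SD, n = 3 each). The 14 peaks away from gene ends stood at 1.02 ± 0.0679 in confined and 0.970 ± 0.0758 in unconfined cells, which overlapped, and the 5 near gene ends at 0.911 ± 0.386 and 1.70 ± 0.361. Of the 19, 5 could be tested, and edgeR, DESeq2 and limma-voom called none; 1 was higher at an unadjusted p under 0.05. Snord13 encodes the U13 RNA that takes part in ribosomal RNA maturation, and the midpoint of its peak lies 287 bp from Tti2. This peak held 13, 6 and 0 counts in confined libraries 1 to 3, and 15, 83 and 73 in unconfined libraries 1 to 3. Its log2 fold change was -0.65 ± 0.39 (adjusted p = 0.291). Snord49b, a box C/D RNA of the kind that guides methylation, lies inside the noncoding gene 2410006H16Rik and had 100, 111 and 126 CPM in confined and 235, 139 and 133 CPM in unconfined cells. Its groups did not overlap, and it did not pass (log2 fold change -0.51 ± 0.37, adjusted p = 0.399).

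Snora78, a box H/ACA RNA inside Snhg9 and Rps2, had 108, 92.8 and 31.4 CPM in confined and 101, 146 and 129 CPM in unconfined cells (log2 fold change -0.52 ± 0.37, adjusted p = 0.403). Snord104, which shares a peak with Gm22711, had 83.4, 111 and 126 CPM in confined and 101, 112 and 79.6 CPM in unconfined cells (adjusted p = 0.993). LOC115487912, inside Med24, had 167, 111 and 62.9 CPM in confined and 67.2, 81.7 and 81.7 CPM in unconfined cells (log2 fold change 0.76 ± 0.36, adjusted p = 0.176). In all 3 the groups overlapped. Snord118, the U8 RNA of ribosomal RNA maturation beside Tmem107, was not tested, with 7, 8 and 2 counts in confined and 5, 36 and 27 in unconfined libraries.

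The miRNA peaks divided by position. The 48 near gene ends stood at 1.06 ± 0.169 of the average peak in confined and 1.84 ± 0.185 in unconfined cells, and the 30 away from them at 0.931 ± 0.208 and 0.790 ± 0.0813 (SD, n = 3 each). Near gene ends the libraries of the groups did not overlap, and away from them they did. The median log2 fold change was -0.48 over the 25 tested near gene ends, beside -0.26 for all peaks there. Over the 5 tested away from gene ends it was 0.83, beside 0.27. One of the 30 tested miRNA peaks passed, higher in confined cells (3.33%, beside 5.79% of all tested peaks called higher).

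It lies over Mir713 at chr13:62760320-62761019, 11531 bp from Gm5141, and held 16, 8 and 5 counts in confined libraries 1 to 3, and 8, 24 and 20 in unconfined libraries 1 to 3. In CPM these are 133, 149 and 157 in confined and 53.8, 45.6 and 40.8 in unconfined cells, with no overlap. The log2 fold change was 1.65 ± 0.45 (adjusted p = 0.0167), and DESeq2, limma-voom and the batch block kept the call. The peak entered the test through the confined group alone, where it had 36.1 to 46.9 CPM of all peaks, against 19.5 to 26.2 in unconfined libraries. Fitted with no filter, the log2 fold change was 0.78 and it did not pass (adjusted p = 0.252). Without confined library 2 or unconfined library 1 or 3 the adjusted p was 0.0802, 0.0538 or 0.0787, and scaled by total counts the log2 fold change was 0.99 (adjusted p = 0.0518).

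The 3 highest miRNA peaks near gene ends lay on starts of protein-coding genes, and none passed. Mir1938, at the start of Ifrd1, had 192, 74.3 and 62.9 CPM in confined and 276, 264 and 249 CPM in unconfined cells, without overlap (log2 fold change -0.92 ± 0.36, adjusted p = 0.101). Without confined library 1 its adjusted p was 0.0039, in a fit that called 23.4% of all tested peaks. Mir8098, at the start of Wdfy2, had 142, 130 and 189 CPM in confined and 202, 234 and 198 CPM in unconfined cells, without overlap (log2 fold change -0.54 ± 0.33, adjusted p = 0.311). Mir3091, at the start of Rps21, a ribosomal protein gene, had 208, 111 and 94.3 CPM in confined and 229, 198 and 259 CPM in unconfined cells, which overlapped (log2 fold change -0.49 ± 0.34, adjusted p = 0.377). Away from gene ends, Mir8096 had 158, 0 and 220 CPM in confined and 47.1, 85.5 and 63.3 CPM in unconfined cells, which overlapped (log2 fold change 0.83 ± 0.44, adjusted p = 0.234).

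Of 78 annotated genes of miRNAs known from blood and stem cells, 7 lay under a peak, in 6 peaks, and 1 of these peaks could be tested. miR-33 is made from Srebf2, the gene of a regulator of sterol synthesis, and acts on cholesterol transport. Its peak (chr15:82198153-82198852) held 17, 2 and 10 counts in confined libraries 1 to 3, and 12, 46 and 26 in unconfined libraries 1 to 3. The CPM were 142, 37.1 and 314 in confined and 80.7, 87.4 and 53.1 in unconfined cells, and the groups overlapped (log2 fold change 0.97 ± 0.40, adjusted p = 0.123).

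The others held too few counts to test. Mir142, which is specific to blood cells, shares its peak (chr11:87756374-87757073) with Mir142b on the opposite strand and held 8, 4 and 1 counts in confined and 0, 29 and 23 in unconfined libraries. Mir155, a regulator of immune and myeloid cells, held 5, 4 and 2 counts in confined and 1, 15 and 8 in unconfined libraries, at chr16:84713749-84714448. Mir150, which acts on Myb in lymphoid cells, has its peak within 1 kb of a protein-coding gene end. This peak held 10, 8 and 6 counts in confined and 6, 38 and 17 in unconfined libraries. The shared peak of Mir132 and Mir212, a pair known to affect HSC ageing in mouse, held 2, 4 and 0 counts in confined and 8, 25 and 26 in unconfined libraries, and that of Mirlet7i 8, 0 and 2 in confined and 6, 27 and 17 in unconfined libraries. Fitted with no filter, none of these untested peaks passed, with adjusted p from 0.0841 to 0.802. The other listed genes had no peak over the gene itself. For Mir223, a granulocyte miRNA, the nearest peak centre lay 3084 bp away, for Mir126a, known from HSC quiescence, 2831 bp, for Mir21a 2584 bp, for Mir17 1468 bp and for Mir196b, in the Hoxa cluster, 655 bp.

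Genes of the proteins that make or use these RNAs were read at the peaks within 1 kb of their ends. Of 14 tested peaks of RNA polymerase III and its factors, edgeR, DESeq2 and limma-voom called none, with 2 lower at an unadjusted p under 0.05 and a median log2 fold change of -0.17. Of 25 tested peaks of snoRNP and snRNP assembly none was called by these tools, with 7 lower at an unadjusted p under 0.05 and a median of -0.32. The Prmt5 peak of this list is the peak over n-TRacg6 described above. Likewise, the Gtf3c6 peak of the polymerase III list is the peak over the snRNA gene Rnu3a. The counts of these peaks therefore enter both the lists and the peaks over small RNA genes. Of 5 tested peaks of the signal recognition particle none was called, and none had an unadjusted p under 0.05. These medians stand beside -0.26 for all tested peaks near gene ends. Of all 9084 tested peaks, near gene ends or not, 1073 were lower at an unadjusted p under 0.05 in edgeR.

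In the list of miRNA processing and action, 2 of 14 tested peaks were lower in confined cells (14.3%, beside 3.77% of all tested peaks near gene ends called lower). They belong to Ddx5, a helicase of the nuclear miRNA processing complex, and Tnrc6b, a scaffold of miRNA silencing. Ddx5 held 10, 2 and 1 counts in confined libraries 1 to 3, and 33, 87 and 83 in unconfined libraries 1 to 3 (log2 fold change -1.49 ± 0.41, adjusted p = 0.0163). Tnrc6b held 9, 7 and 3 counts in confined libraries 1 to 3, and 37, 116 and 132 in unconfined libraries 1 to 3 (log2 fold change -1.39 ± 0.38, adjusted p = 0.0165). A second tested Ddx5 peak had a log2 fold change of -0.03 (adjusted p = 0.979). With the batch block the first Ddx5 peak passed and Tnrc6b did not (adjusted p = 0.0144 and 0.0959). Ddx5 did not pass without confined library 2 (adjusted p = 0.0611), nor Tnrc6b without confined library 1 or unconfined library 3 (0.0528 and 0.0662). Ddx5 passed the filter through the unconfined group alone. DESeq2 called 1 of the 14 lower, neither of these, and limma-voom 3.

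In the list of tRNA processing and charging, 1 of 32 tested peaks was higher and 1 lower in confined cells (6.25%, beside 4.85% of all tested peaks near gene ends). A peak of Aars, the alanyl-tRNA synthetase gene, averaged 170 ± 46.7 CPM in confined and 41.3 ± 20.3 CPM in unconfined cells (log2 fold change 1.74 ± 0.44, adjusted p = 0.0109). It entered the test through the confined group alone, and did not pass without a filter (adjusted p = 0.189), without confined library 2 (0.106) or without unconfined library 1 (0.0682). A second tested Aars peak had 53.8 ± 55.8 CPM in confined and 77.1 ± 4.07 CPM in unconfined cells (adjusted p = 0.656). The peak of Yars, the tyrosyl-tRNA synthetase gene, held 3, 2 and 0 counts in confined libraries 1 to 3, and 25, 55 and 46 in unconfined libraries 1 to 3 (adjusted p = 0.0131). It entered through the unconfined group alone, and with so few confined counts no fold change is given. DESeq2 gave it adjusted p = 0.0517. Alanine and tyrosine tRNA genes themselves had no peak past the threshold in edgeR, DESeq2 or limma-voom.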

How the data were processed

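ATAC-seq was done on 6 libraries of mouse LT-HSCs. The authors deposited raw counts per peak for all 6, beside the position of each peak. The tools named are featureCounts, SAMtools 1.14 and R 4.2.0, and the build is mm10, per the submitters' processing notes. Not given in the sources used here are the aligner, the peak caller, how duplicates and reads with several matches were treated, any transposase shift, and which libraries the peaks were called from. Sites open in confined cells alone would be missing if the deeper libraries set the peaks.

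Peaks were matched to RefSeq genes of GRCm38.p6 (mm10), which give no strand or exons here. Sequences are RefSeq's, of the same build. All peaks were fitted with edgeR 4.0.16 in R 4.3.3 (filterByExpr, about 31.0 CPM in at least 3 libraries, TMM factors, glmQLFit and glmQLFTest, two-sided, no term but group, adjusted by Benjamini-Hochberg over 9084 peaks). A peak can pass this filter through 1 group. DESeq2 1.42.0, limma-voom (limma 3.58.1), other scalings, filters and overlaps, the batch as a block, and leaving out each library were alternatives. A floor of 3 counts is 5.70 to 20.2 CPM in unconfined and 25.0 to 94.3 CPM in confined libraries. Levels relative to the average peak (share of counts over share of peaks) use all counts and no test. Intervals are exact 95% Clopper-Pearson ones. Tables were handled in Python 3.11.15.

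Same-numbered libraries share a batch by label. After subtracting each group's mean, pairs of the same number gave r = -0.0042, 0.0118 and -0.0641, and other pairs -0.128 to 0.133.

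Named peaks are every one past the threshold, the 3 of highest mean CPM per class and position, both 7SL genes, the blood miRNA genes, and up to 3 called peaks per machinery list. Members and lists were chosen with earlier results of these data known. Fold changes of named peaks over small RNA genes within their standard error are not printed. Some marker genes are not reported here.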

Additional observations from a re-analysis of the deposited data

How the results depend on the processing

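Of all tested peaks, 526 were higher and 220 lower. Leaving out 1 library gave 250 to 1696 higher and 76 to 788 lower. Among peaks over small RNA genes, 2 and 3 by the main test, it gave 0 to 7 higher and 0 to 10 lower: none of either without confined library 2 or unconfined library 3, 7 and 7 without confined library 1, 2 and 1 without unconfined library 2, 0 and 10 without unconfined library 1, and 7 lower without confined library 3. In each of these fits a smaller share of them was called than of all tested peaks. Total scaling gave 348 higher and 2286 lower over all peaks, and 0 and 30 over small RNA genes. Without a filter, 1821 were lower, and 0 higher and 24 lower over small RNA genes. A mean count of at least 10 gave 581 lower and 9. The replicate block gave 74 lower and 0, and DESeq2 75 lower and 0. Confined library 1 as the only confined library gave 3 higher and 7 lower, or 15 and 22 on the peaks of the main test (chosen after seeing the data), and 0 over small RNA genes either way; the lone library is assumed to vary like the unconfined ones. The difference in level, -0.444, was -0.219 away from gene ends, -0.468 without the 7SL peaks (added after seeing the data) and -0.477 to -0.395 with 1 library left out. Direction reversed for Rn7s1 without confined library 3 (-0.10) and with confined library 1 alone (-0.73, or -0.054 on the main peaks), for Rn7s2 likewise (-0.39, -1.49 and -0.84), and for LOC115487912 without a filter (-0.13). Without confined library 1 the values of Rn7s1 and Rn7s2 were 1.53 and 1.71 and passed, in a fit that called 23.4% of all tested peaks. The cause was not tested. The block ended the calls of the 3 tRNA peaks and Tnrc6b, and not those of Gm25939, Mir713, Ddx5, Aars and Yars.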
